A study of Mus musculus with 6 samples.

Results

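Genes that build long-chain fatty acids and desaturate them were followed in cultured mouse mammary luminal cells given ephrin-A3 protein. They were Acly, Acaca, Fasn, Elovl6, Elovl5, Scd1, Scd2, Fads1, Fads2 and the regulator Srebf1. The genes were chosen by name for their place in the pathway, with earlier results of these data known. All 10 were found among the 19739 genes of the authors' table, and all 10 were among the 16394 that passed a filter on low values. The cells were mammary epithelial cells of wild-type (WT) genotype, purified by flow cytometry as luminal cells and expanded in DMEM/F12 with heparin (4 µg/ml), FGF2 (20 ng/ml), EGF (10 ng/ml), the ROCK inhibitor Y-27632 (5 µM) and serum (5% FBS). After 12 hours without serum, the EFNA3 group received EFNA3 protein at 1 µg/ml for 24 hours in medium that still lacked serum, and the control group is labelled 0 µg/ml. Each group had 3 libraries. The sources used here do not give the strain and age of the mice, or say that the libraries of a group came from separate animals or cultures. The p-values therefore cover the spread among these libraries alone, and that spread may be technical.

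Fatty acid synthesis starts from cytosolic citrate. ATP-citrate lyase (Acly) splits it to acetyl-CoA, acetyl-CoA carboxylase 1 (Acaca) makes malonyl-CoA, and fatty acid synthase (Fasn) condenses these to palmitate. Elongases such as Elovl6 lengthen the chain, stearoyl-CoA desaturases (Scd1, Scd2) place a double bond in saturated chains, and the delta-5 and delta-6 desaturases (Fads1, Fads2) act with Elovl5 on polyunsaturated chains. Srebf1 encodes SREBP-1, a transcription factor that is released from membranes by proteolysis and activates most genes of this route. In the mammary gland the route is best known for supplying milk fat.

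The deposited values were on a log2 scale and all libraries shared 1 distribution with a median of 8.10, so each value records a gene's rank in its library, and depth is unknown. Luminal markers were abundant: the summed log2 level of Krt8, Krt18, Krt19, Epcam, Elf5 and Kit ran from 16.15 to 16.24 in controls and from 16.23 to 16.46 with EFNA3. The summed level of basal markers, carried by the keratins Krt14 and Krt5, was 16.75 to 16.85 in controls and 16.85 to 16.94 with EFNA3. Trp63, a basal transcription factor of that list, was above the table's median, at 11.73 to 11.82 in controls and 11.72 to 11.76 with EFNA3. The contractile genes of that list were under the table's median: Acta2 had log2 values of 7.66 to 7.88 in controls and 7.71 to 7.93 with EFNA3, Tagln 5.12 to 5.32 and 4.17 to 5.20, and Myh11, which did not pass the filter, 1.66 to 3.31 and 0.78 to 1.65. EFNA3 replicate 1 stood apart by transcript length. When tested genes were cut into 8 equal groups by length, its median deviation from the mean of all 6 libraries was 0.31 (log2) in the group of shortest transcripts and -0.32 in the group of longest transcripts. In the other 5 libraries these medians ran from -0.13 to 0.02 and from 0.02 to 0.12. Results are therefore given with and without EFNA3 replicate 1.

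Levels were set on a per-length scale to compare genes, as the log2 value less the log2 of the longest annotated transcript in kb. In controls Scd1 was highest at 15.66, followed by Scd2 at 12.22, Fads2 at 11.65, Srebf1 at 11.47 and Acly at 11.06. Fads1 at 10.97, Elovl6 at 10.41, Fasn at 10.32 and Elovl5 at 9.96 came next. Acaca was lowest at 8.05. Between neighbours in this order, the ranges over the 3 control libraries overlapped for Fads2 and Srebf1 and for Acly and Fads1, and did not overlap for the other neighbours. The length used is that of the longest transcript, which may not be the one expressed.

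**Figure D1:**
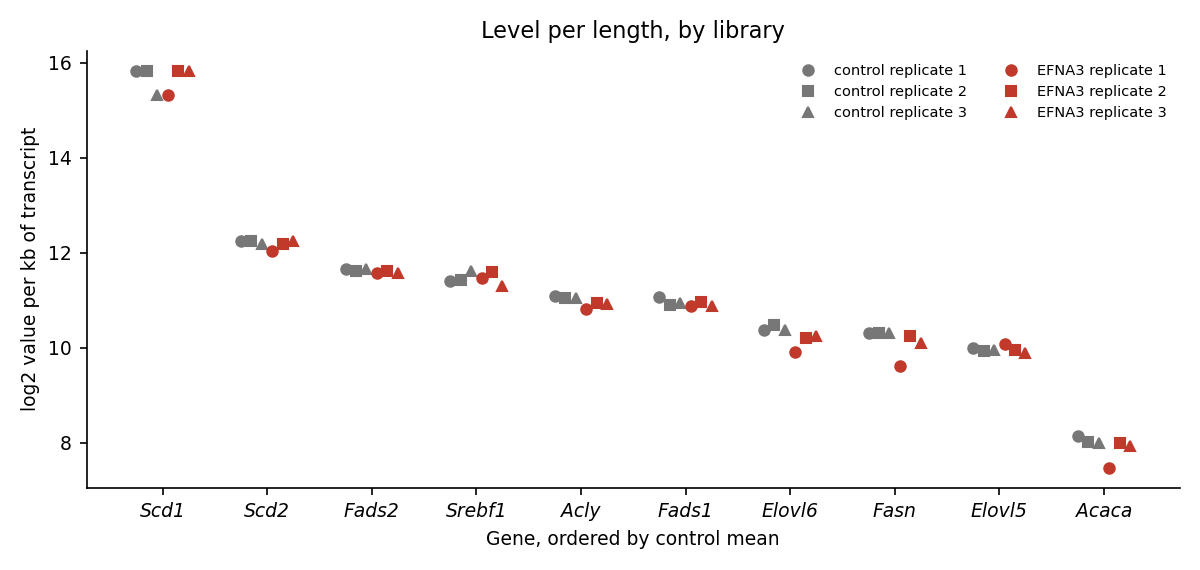
Level per kb of transcript (log2, vertical axis) of each gene in each library, with genes ordered by control mean; grey points are controls, red points EFNA3, and the shape gives the replicate. Scd1 lies above all other genes, and Acaca below them.

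In the deposited values, genes of the first steps of synthesis, from citrate to stearate, stood lower in all 3 EFNA3 libraries than in every control. Desaturases, Elovl5 and Srebf1 overlapped between groups. The 4 lower genes were Acly, Acaca, Fasn and Elovl6, and without EFNA3 replicate 1 no other of the 10 joined them. Among all tested genes 7.45% were lower with no overlap between groups, or 9.20% without EFNA3 replicate 1. None of the 10 genes was higher with no overlap, where 8.53% of all tested genes were. This division changed with the length and GC correction described further on. Acaca then overlapped, the desaturase Fads2 was lower with no overlap (6.24% of tested genes) and Scd2 was higher with no overlap (8.94%). No gene passed limma adjusted over all genes tested, with or without EFNA3 replicate 1, so none of these differences is a call. At an unadjusted limma p under 0.05, 469 genes were lower and 635 higher over the whole table, and 3 of the 10 genes were lower (Acly, Fasn and Elovl6), where 2.86% of all tested genes were. Without EFNA3 replicate 1 the same 3 genes were under 0.05, where 2.20% of all tested genes were lower. With 1 library left out in turn, the count of the 10 genes lower was 1 without control replicate 1, where 1.09% of all tested genes were lower, 0 without control replicate 2, where 1.12% were, and 1 without control replicate 3, where 2.12% were. It was 4 without EFNA3 replicate 2, where 5.28% of all tested genes were lower, and 2 without EFNA3 replicate 3, where 8.15% were.

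Acly, the source of cytosolic acetyl-CoA, had log2 values of 13.23, 13.19 and 13.20 in control replicates 1 to 3 and 12.96, 13.09 and 13.06 in EFNA3 replicates 1 to 3. Each EFNA3 library was below each control, and EFNA3 replicate 1 was lowest. The mean was 13.21 ± 0.022 in controls and 13.04 ± 0.068 with EFNA3 (SD, n = 3), a log2 difference of -0.17 (SE 0.067; limma unadjusted p = 0.0326, adjusted p = 0.55). Without EFNA3 replicate 1 the log2 difference for Acly was -0.13 (SE 0.046).

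Acaca, whose carboxylase commits acetyl-CoA to fatty acids, had log2 values of 11.39, 11.26 and 11.25 in controls and 10.72, 11.24 and 11.19 with EFNA3. EFNA3 replicate 1 lay far below the rest, while EFNA3 replicate 2 was only just under the lowest control. The log2 difference was -0.25 (SE 0.13; limma unadjusted p = 0.0829), and its 95% interval, -0.55 to 0.04, reached both sides of no difference. It rested largely on EFNA3 replicate 1, without which it was -0.09 (SE 0.061).

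Fasn, the synthase that makes palmitate, had log2 values of 13.65, 13.65 and 13.64 in controls and 12.94, 13.58 and 13.42 with EFNA3. The controls were almost equal, at ranks 171, 171 and 173 of the table, and the EFNA3 libraries spread from rank 190 in replicate 2 to rank 431 in replicate 1. The mean was 13.65 ± 0.0045 in controls and 13.31 ± 0.33 with EFNA3 (SD, n = 3), a log2 difference of -0.34 (SE 0.14; limma unadjusted p = 0.0429, adjusted p = 0.55), or 0.792 of the control level. Without EFNA3 replicate 1 the log2 difference for Fasn was -0.15 (SE 0.054).

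Elovl6, the elongase that turns palmitate into stearate, had log2 values of 12.95, 13.05 and 12.95 in controls and 12.47, 12.79 and 12.82 with EFNA3. All EFNA3 values were under all controls, and EFNA3 replicates 2 and 3 lay close together. The mean was 12.98 ± 0.061 in controls and 12.70 ± 0.19 with EFNA3 (SD, n = 3), a log2 difference of -0.29 (SE 0.099; limma unadjusted p = 0.0171, adjusted p = 0.55), or 0.819 of the control level. Without EFNA3 replicate 1 the log2 difference for Elovl6 was -0.18 (SE 0.051; limma unadjusted p = 0.00486, adjusted p = 0.986).

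**Figure D2:**
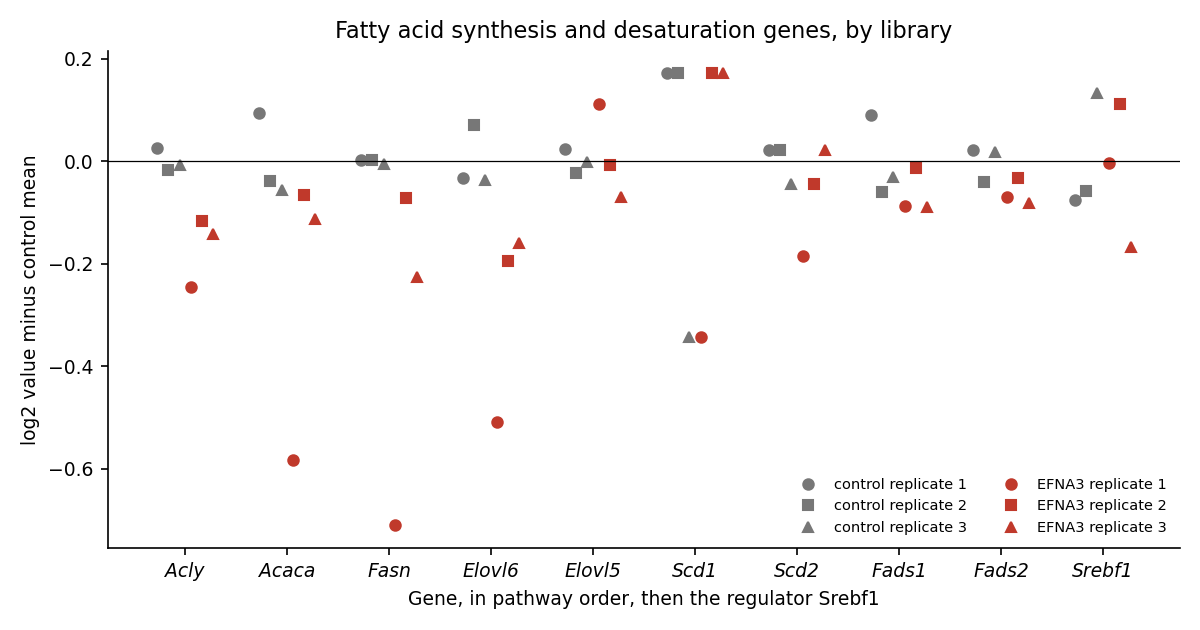
Log2 value of each gene in each library less the gene's control mean (vertical axis), in pathway order; grey points are controls, red points EFNA3, and the shape gives the replicate. For Acly, Acaca, Fasn and Elovl6 every red point lies below every grey point, and the lowest of them is EFNA3 replicate 1.

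Upstream sequence is shown for 3 of the 4 genes that did not overlap, a choice that follows from their values. Shared regulation of these genes was not tested. RefSeq (GRCm38.p6) gave a window for 7 of the 10 genes, all but Scd1, Scd2 and Fads1. Each line holds the 250 bases before the annotated start, 5′ to 3′ on the gene's strand. Capitals mark 3 motifs on either strand: CCAAT (the CCAAT box, bound by NF-Y), GGGCGG (the GC box, bound by Sp1) and ATCACNC (described after the sequences).
Acly (chr11:100528001-100528250, minus strand): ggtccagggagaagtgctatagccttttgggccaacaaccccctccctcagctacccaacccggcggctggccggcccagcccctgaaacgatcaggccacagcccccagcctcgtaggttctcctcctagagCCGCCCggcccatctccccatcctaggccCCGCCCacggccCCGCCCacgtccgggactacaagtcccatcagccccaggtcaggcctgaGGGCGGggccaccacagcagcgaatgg
Fasn (chr11:120824548-120824797, minus strand): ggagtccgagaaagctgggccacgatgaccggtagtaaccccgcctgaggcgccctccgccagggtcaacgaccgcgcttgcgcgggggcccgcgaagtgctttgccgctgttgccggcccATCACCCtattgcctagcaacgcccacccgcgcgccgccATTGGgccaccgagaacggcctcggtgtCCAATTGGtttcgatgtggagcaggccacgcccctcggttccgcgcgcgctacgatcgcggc
Elovl6 (chr3:129532136-129532385, plus strand): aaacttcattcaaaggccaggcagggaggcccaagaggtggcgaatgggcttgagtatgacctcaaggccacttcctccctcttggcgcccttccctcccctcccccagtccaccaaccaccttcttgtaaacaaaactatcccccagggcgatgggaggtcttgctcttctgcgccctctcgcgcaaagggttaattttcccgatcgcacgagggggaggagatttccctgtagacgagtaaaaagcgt
The Acly window held 4 GC boxes, where 32.7% of all 32851 RefSeq windows of this length held at least 1. The Fasn window held 3 CCAAT boxes, the second and the third of which overlap on opposite strands. At least 1 CCAAT box was present in 33.8% of all windows. Genes whose groups overlapped held these motifs too. The Elovl5 window had 2 CCAAT boxes and the Fads2 window 1 GC box, and windows of Srebf1 held both motifs. The windows of Elovl6 and Acaca held none of the motifs searched. That of Acaca, which is not printed, had a GC share of 39.2%, and whether it is a promoter used in these cells was not tested. The E-box CACGTG was found only in the window of Elovl5 among these genes, and in 6.02% of all windows. The letters ATCACNC, where N is any base, open the sterol regulatory element of the LDL receptor gene, to which SREBPs bind. This motif was chosen after the windows were seen. It was found once among the 9 windows of these genes, in that of Fasn, 129 bases before the start, and in 7.56% of all windows.

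Elovl5, the elongase of polyunsaturated chains, differed in pattern from Elovl6. It had log2 values of 11.46, 11.42 and 11.44 in controls and 11.55, 11.43 and 11.37 with EFNA3, so EFNA3 libraries held both the highest and the lowest value. The log2 difference was 0.01 (SE 0.071; 95% interval -0.15 to 0.17), and -0.04 without EFNA3 replicate 1. The log2 ratio of Elovl6 to Elovl5 within a library was 1.49, 1.64 and 1.51 in controls and 0.92, 1.36 and 1.45 with EFNA3. This pair was chosen after the values were seen and is given without a test. After the length and GC correction described further on, the log2 ratio was 1.39, 1.54 and 1.49 in controls and 1.19, 1.34 and 1.42 with EFNA3, so the groups then overlapped, with EFNA3 replicate 3 above control replicate 1.

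Scd1, the main stearoyl-CoA desaturase of lipogenic tissue, was the top gene of the table. It held rank 1 in control replicates 1 and 2 and EFNA3 replicates 2 and 3, with a log2 value of 18.11 in each. It held rank 2 in control replicate 3 and EFNA3 replicate 1, with 17.59. In both of those libraries rank 1 was held by Rn18s-rs5, a row related to ribosomal RNA. With that row left out Scd1 ranked 1 in all 6 libraries. The step between the 2 ranks was 0.51 on the log2 scale, and no value above 18.11 was possible, so these values give the order of the rows and not a measured change of Scd1. The group means were equal (log2 difference 0.00, SE 0.19; 95% interval -0.43 to 0.43), and without EFNA3 replicate 1 the difference was 0.17, made by control replicate 3 alone.

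Scd2, a second stearoyl-CoA desaturase, had log2 values of 14.69, 14.69 and 14.62 in controls and 14.48, 14.62 and 14.69 with EFNA3. The groups overlapped, with EFNA3 replicate 1 lowest. The log2 difference was -0.07 (SE 0.079; 95% interval -0.25 to 0.11), or -0.01 without that library. Near the top of the table ranks are also far apart for Scd2, with a mean step of 0.028 per rank in control replicate 1. Scd1 to Scd4 are close paralogues, and the sources used here do not say how reads shared between them were counted, so their values are uncertain.

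Fads1, the delta-5 desaturase, had log2 values of 12.85, 12.70 and 12.73 in controls and 12.67, 12.75 and 12.67 with EFNA3. Its groups overlapped through EFNA3 replicate 2, and the log2 difference was -0.06 (SE 0.070; 95% interval -0.22 to 0.10). Fads2, the delta-6 desaturase, had log2 values of 13.32, 13.26 and 13.32 in controls and 13.23, 13.27 and 13.22 with EFNA3. Only EFNA3 replicate 2 reached the controls, and the log2 difference was -0.06 (SE 0.063; 95% interval -0.21 to 0.08). The log2 ratio of Fads2 to Fads1 was 0.54 ± 0.061 in controls and 0.54 ± 0.019 with EFNA3 (SD, n = 3). Both desaturases kept differences of -0.05 and -0.06 without EFNA3 replicate 1.

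Srebf1 had log2 values of 13.50, 13.52 and 13.71 in controls and 13.58, 13.69 and 13.41 with EFNA3. Libraries of both groups were interleaved, with EFNA3 replicate 3 lowest and control replicate 3 highest. The log2 difference was -0.02 (SE 0.093; 95% interval -0.23 to 0.19), and -0.03 without EFNA3 replicate 1. The table counts Srebf1 as 1 gene, so transcripts from its alternative starts cannot be told apart, and the amount of transcript does not measure SREBP-1 protein released from membranes.

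**Figure D3:**
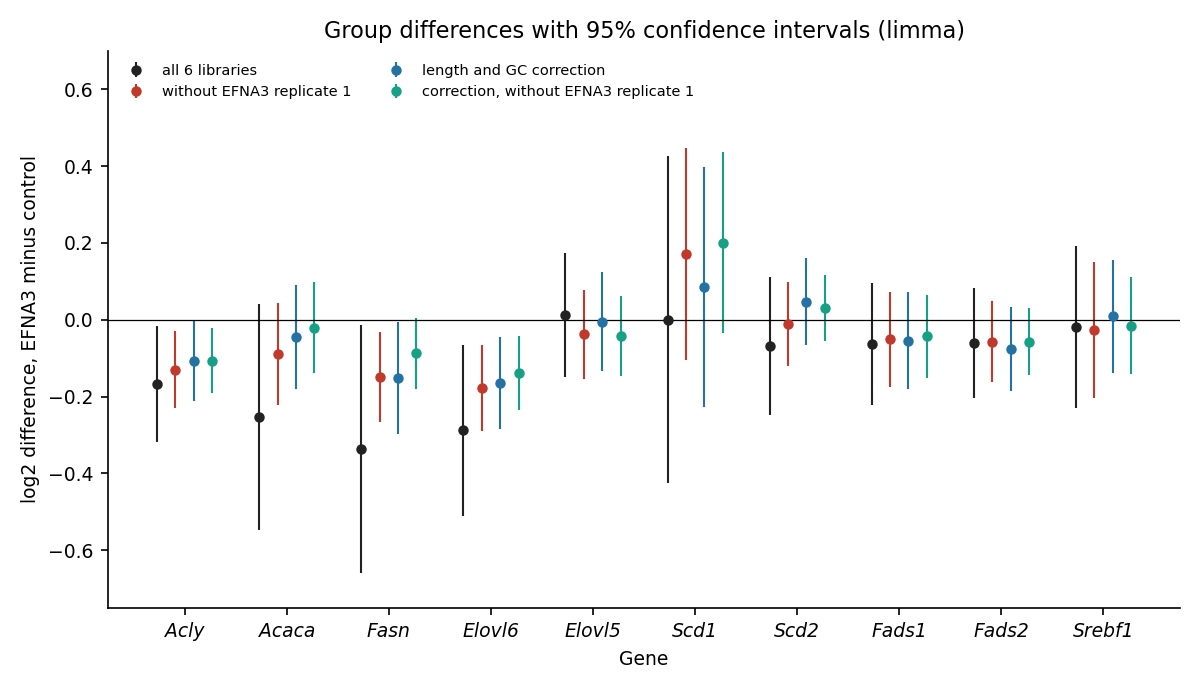
Log2 difference between groups (EFNA3 minus control, vertical axis) with 95% limma intervals for each gene, from all 6 libraries, without EFNA3 replicate 1, after transcript length and GC share were taken out, and with both. In each of the 4 fits the intervals of Acly and Elovl6 lie below 0, that of Fasn does so in 3, and all others include 0.

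Over the 10 genes, 8 had a lower mean with EFNA3, 1 a higher mean and 1 an equal mean, where 49.2% of all tested genes were lower. The median log2 difference was -0.07, beside 0.00 over all tested genes. Without EFNA3 replicate 1 it was -0.05 with 9 lower, where 50.2% of all tested genes were lower. Since the 10 genes were chosen with earlier results known, their counts beside those of all genes are a description.

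Length moved with these results. Acaca, Fasn and Elovl6 belong to the group of longest transcripts, whose median log2 difference over all tested genes was -0.18, or -0.06 without EFNA3 replicate 1. Elovl6, at 5951 nt, lies at the lower edge of that group. The group just shorter had a median of -0.08, or -0.03 without that library. Acly, at 4426 nt, belongs to a group with a median of -0.02. When length and GC share were taken out of every library, the log2 differences became -0.11 (SE 0.046) for Acly, -0.15 (SE 0.065) for Fasn and -0.17 (SE 0.053) for Elovl6. That of Acaca became -0.04 (SE 0.060), and its groups then overlapped. After the correction 3 of the 10 genes, again Acly, Fasn and Elovl6, were lower at an unadjusted limma p under 0.05, where 3.05% of tested genes were, and none passed after adjustment. With the correction and without EFNA3 replicate 1 these were Acly and Elovl6, where 1.93% of tested genes were, and Fasn stood at -0.09 (SE 0.042). After the correction Acly, Fasn, Elovl6 and Fads2 were lower with no overlap, where 6.24% of tested genes were, and Scd2 was higher with no overlap, where 8.94% were.

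**Figure D4:**
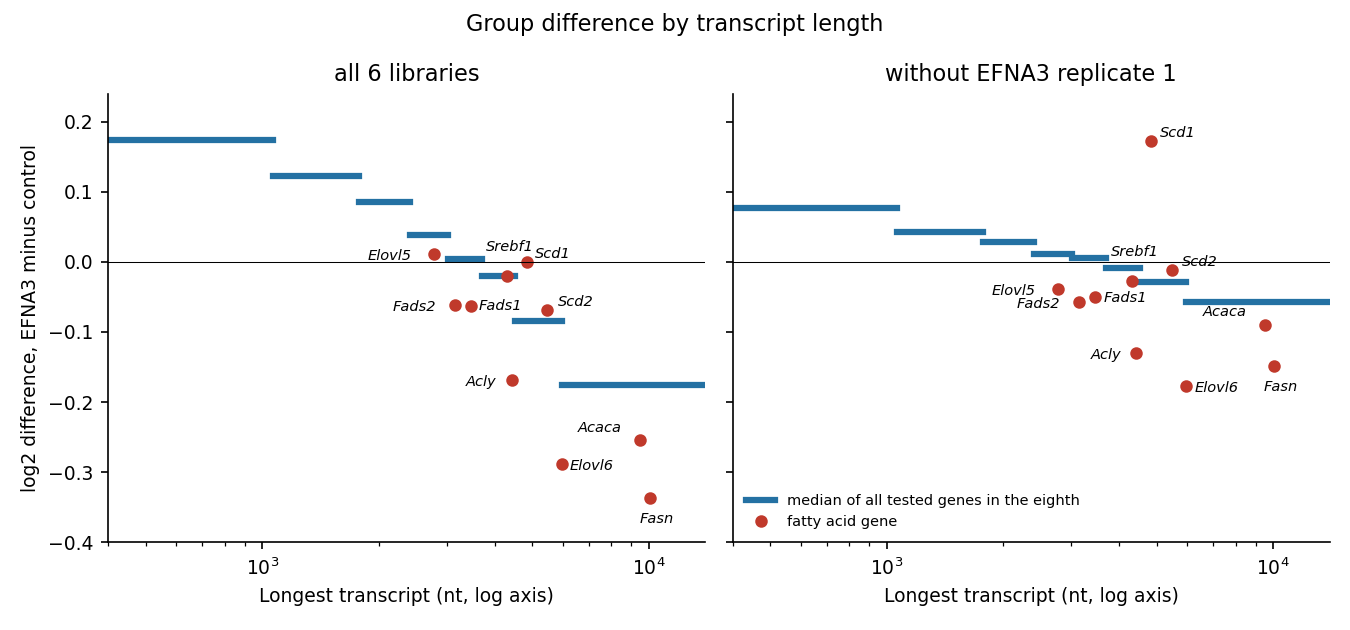
Log2 difference between groups (EFNA3 minus control, vertical axis) against the length of the longest transcript (nt, log axis), with all 6 libraries and without EFNA3 replicate 1. Blue lines are medians of all tested genes in 8 equal groups by length, cut at the edges of the plot, and red points are the fatty acid genes. Acly, Acaca, Fasn and Elovl6 lie below the blue line of their length group in both panels, and Acaca is the closest of them to its line.

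Other genes of the pathway, from lists by role, lay on both sides of no difference. Of 45 listed, 42 passed the filter, with 19 lower and 23 higher and a median log2 difference of 0.02. Without EFNA3 replicate 1 the lower genes were 25 of the 42, where 50.2% of all tested genes were lower, and the median was -0.01. With all 6 libraries and an unadjusted limma p under 0.05, 1 was lower (2.86% of all tested genes) and 2 were higher (3.87%). None passed after adjustment. The counts per list use the same unadjusted threshold and all 6 libraries, and each named gene's difference is followed by its value without EFNA3 replicate 1.

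Of 6 genes that supply citrate, acetyl-CoA or NADPH, 0 reached it. On the log2 scale Pgd, an NADPH source, differed by 0.10 (SE 0.070; 0.06 without that library), the acetate-activating gene Acss2 by -0.13 (SE 0.099; -0.15 without it) and G6pdx, which opens the pentose phosphate route, by -0.10 (SE 0.081; -0.03 without it). Of 4 carboxylase partners, 0 reached it. Acacb, the mitochondrial carboxylase paralogue of Acaca, had log2 values of 8.24, 8.17 and 8.23 in controls and 7.79, 8.09 and 8.04 with EFNA3. These did not overlap, and the log2 difference was -0.24 (SE 0.12), or -0.15 without EFNA3 replicate 1 and -0.07 after the length and GC correction. Mid1ip1, which promotes polymerisation of the carboxylase, differed by 0.13 (SE 0.098; 0.05 without that library), and its relative Thrsp, near the filter, by 0.59 (SE 0.45; 0.20 without it).

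Of 9 elongation genes, 1 reached it. Hacd1, a dehydratase of the elongation cycle, had log2 values of 5.96, 6.28 and 6.17 in controls and 7.02, 6.58 and 6.60 with EFNA3. Its EFNA3 values were all above the controls, with a log2 difference of 0.60 (SE 0.18; limma unadjusted p = 0.0103, adjusted p = 0.55). Without EFNA3 replicate 1 it was 0.45 for Hacd1, and after the length and GC correction 0.54. Elovl3, an elongase of very long saturated chains, differed by -0.26 (SE 0.13), with overlapping groups. After the length and GC correction its difference was -0.30 (limma unadjusted p = 0.0286, adjusted p = 0.587). Without EFNA3 replicate 1, and uncorrected, it was -0.34 with no overlap (limma unadjusted p = 0.0183, adjusted p = 0.986). The reductase gene Tecr differed by 0.16 (SE 0.094; 0.08 without that library), or by 0.05 after the correction. Elovl7, which elongates saturated and polyunsaturated chains, differed by -0.00 (SE 0.078; 0.02 without that library). The elongase paralogues Elovl4 and Elovl1, named after their values were seen, differed by -0.17 (SE 0.10; -0.12 without it) and 0.04 (SE 0.076; -0.01 without it), with overlapping groups.

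Of 7 desaturases and electron carriers, 1 reached it. Fads6, which carries a desaturase domain, had log2 values of 10.94, 10.98 and 10.90 in controls and 10.68, 10.78 and 10.84 with EFNA3. The groups did not overlap, and the log2 difference was -0.17 (SE 0.072; limma unadjusted p = 0.0396, adjusted p = 0.55), or -0.13 without EFNA3 replicate 1 and -0.09 after the length and GC correction. Scd3 differed by -0.28 (SE 0.16; -0.14 without that library) and Scd4 by 0.07 (SE 0.41; 0.32 without it). Fads3 differed by 0.01 (SE 0.063; -0.00 without it) and the electron carrier Cyb5a by 0.20 (SE 0.13; 0.05 without it). After the correction Cyb5a differed by 0.11.

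Of 12 genes of SREBP processing and lipogenic transcription, 1 reached it. Usf1, an E-box factor, had log2 values of 10.33, 10.30 and 10.29 in controls and 10.70, 10.55 and 10.39 with EFNA3. All EFNA3 values were above the controls, with a log2 difference of 0.24 (SE 0.088; limma unadjusted p = 0.025, adjusted p = 0.55), or 0.16 without EFNA3 replicate 1. Its partner Usf2 differed by 0.19 (SE 0.087; 0.15 without that library), also without overlap, and the liver X receptor gene Nr1h3 by 0.25 (SE 0.14; 0.13 without it). After the length and GC correction the differences were 0.18 for Usf1, 0.14 for Usf2 and 0.18 for Nr1h3. Srebf2, whose product mainly drives cholesterol synthesis, differed by -0.01 (SE 0.077; 95% interval -0.19 to 0.16; 0.03 without it), and the SREBP retention gene Insig1 by -0.05 (SE 0.11; -0.07 without it). Of 4 acyl-CoA synthetases, 0 reached it, with Acsl4 at -0.12 (SE 0.088; -0.04 without it), Acsl1 at -0.09 (SE 0.097; -0.02 without it) and Acsl5 at 0.02 (SE 0.062; 0.01 without it).

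**Figure D5:**
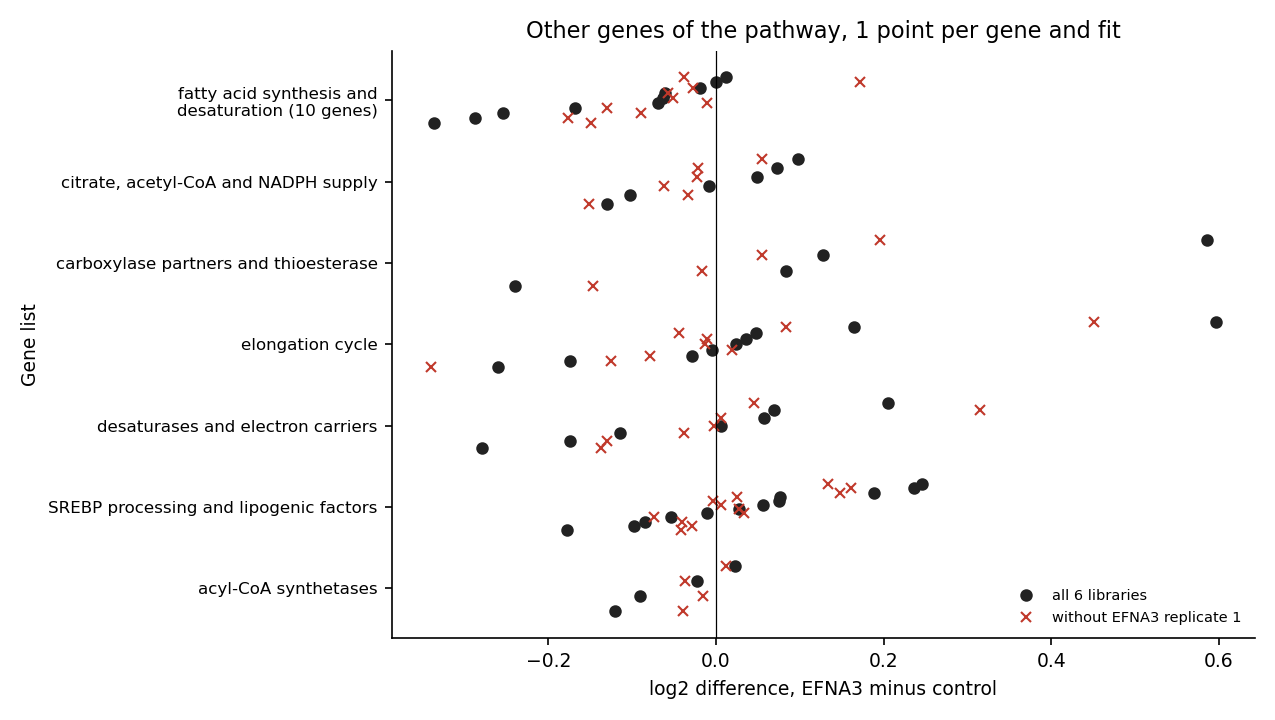
Log2 difference between groups (EFNA3 minus control, horizontal axis) for each tested gene of the fatty acid set and of the role lists (vertical axis); black points use all 6 libraries and red crosses leave out EFNA3 replicate 1. The role lists spread to both sides of 0, and among their black points Hacd1 and Thrsp lie farthest to the right.

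Adipocytes, which also express this route, were checked by their markers. Of 9 markers 6 were analysed and 4 passed the filter, with 2 lower and 2 higher. The defining lipid droplet genes Plin1 and Cidec had log2 values between 1.28 and 4.30 in all 6 libraries, far under the median of 8.10. The summed log2 level of the 6 markers, mostly Fabp4, ran from 8.11 to 8.46 in controls and from 7.80 to 8.32 with EFNA3. In EFNA3 replicates 2 and 3 the sums were 7.91 and 7.80, both under every control, and 3 of the 4 tested markers were lower without EFNA3 replicate 1. Fabp4 differed in that fit by -0.53 (SE 0.15; limma unadjusted p = 0.00365, adjusted p = 0.986), against -0.35 with all libraries. The milk markers Csn2, Csn3, Wap and Lalba, mostly Csn3, summed to 11.47 to 11.69 in controls and 11.29 to 11.86 with EFNA3, or 11.36 and 11.29 without EFNA3 replicate 1, again under every control. Csn3 differed by -0.06 (SE 0.14), and by -0.24 (SE 0.069; limma unadjusted p = 0.00501, adjusted p = 0.986) without that library. Hormone-sensing luminal markers (Esr1, Pgr, Prlr and Foxa1) had a summed log2 level of 13.00 to 13.11 in controls and 12.54 to 12.96 with EFNA3. That sum is mostly Prlr, whose groups did not overlap, with a log2 difference of -0.31 (SE 0.12), or -0.16 without EFNA3 replicate 1, while Esr1, Pgr and Foxa1 overlapped. The list's median longest transcript was 6614 nt, against 4629 nt for the 10 genes and 3015 nt for all tested genes, and its median log2 difference moved from -0.21 to -0.07 with the length and GC correction. The part of any of these marker groups in the results was not tested. In bulk samples, fewer cells of a type and less RNA per cell cannot be told apart.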

How the data were processed

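RNA was sequenced in 6 libraries after a stranded mRNA library preparation, per the labels' protocols. Trim Galore, Subread and featureCounts with build mm39 were used by the authors, per the submitters' processing notes. The sources used here give no versions, annotation, strand setting or normalization. The authors' deposited table held log2 values from -0.79 to 18.11; the base is inferred. Sorted values of the 6 columns differed by at most 0.00302, as after quantile normalization, so a change common to all genes would not show, and no counting interval was possible.

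Columns were matched to samples by description. Genes reaching a log2 value of 3.32 (10 before the log) in 3 or more libraries were tested with limma 3.58.1 (R 4.3.3), with a mean-variance trend, two-sided, with Benjamini-Hochberg adjustment over all 16394 at 0.05 and no pseudocount. On data simulated for this comparison with 16394 genes, 67.7% of log2 changes of 1 and 86.6% of changes of 2 were recovered. The simulated noise was independent between genes, without the length effect seen in the libraries. Smaller changes were not simulated, so these rates do not cover differences as small as those of the 10 genes. The length and GC correction fitted splines (5 degrees of freedom for length and for GC share) to each library's deviations and subtracted them. Lengths were those of the longest GENCODE M21 transcript, found through the symbol for 97.43% of tested genes.

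The genes and lists were chosen with earlier results of these data known. All 10 were named; of each role list, the 3 genes with the smallest unadjusted p and the paralogues Acacb, Scd3, Scd4, Srebf2, Fads3 and Elovl7. Insig1, Elovl1, Elovl4 and the motifs were added after values were seen. The 5 genes most alike were taken by Pearson correlation from 11798 tested genes with a mean of at least 5.64, predicted genes left out. Alternatives covered the filter, a pseudocount, scaling, library weights, the trend, replicate blocks, length and GC, and leaving out each library.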

Additional observations from a re-analysis of the deposited data

How the results depend on the processing

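The replicate numbers in the titles and in the descriptions were each tried as a replicate block. Deviations of same-numbered libraries in the titles had correlations across genes of -0.105, 0.0297 and -0.318. These deviations were centred within each small group, and EFNA3 replicate 1 stood apart by transcript length. The correlations therefore cannot decide whether the numbers pair the samples. With the block by title numbers, 2 of the 10 genes were lower at an unadjusted limma p under 0.05, where 3.06% of all tested genes were. With that block and the length and GC correction together, an alternative chosen after seeing the data, 1 was, where 2.70% were. With the block by description numbers, control replicate 2 and EFNA3 replicate 2 stand alone. The differences then come only from libraries that share a number, and little spread is left to judge them by. In that fit 71 genes of the whole table passed adjustment, none of the 10 among them. The counts under 0.05 were 1 of the 10 (lower, as were 3.06% of all tested genes) and 1 other pathway gene (5.62% in either direction). Without the mean-variance trend they were also 1 and 1 (2.23% and 5.19%), and with library weights 5 other pathway genes were (7.73%). Leaving out each library gave 0 to 4 of the 10 genes, 1 to 4 other pathway genes, 0 genes past adjustment in each case, and a median difference of -0.13 to -0.05. In these fits the share of all tested genes under 0.05 in either direction ran from 3.12% (without control replicate 2) to 15.1%. The count of 4 other pathway genes came without EFNA3 replicate 1, at a share of 4.61%, and without EFNA3 replicate 3, at 15.1%. Over all 17 alternatives Acly ranged from -0.20 to -0.11, Fasn from -0.47 to -0.09, Elovl6 from -0.35 to -0.14 and Acaca from -0.37 to -0.02 (log2), and none of the 10 genes passed adjustment.

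Small differences changed sign. Elovl5 ran from -0.038 to 0.052 when 1 library was left out, with the lowest value without EFNA3 replicate 1, and was -0.021 with library weights, -0.0049 with the length and GC correction (with or without the replicate block) and -0.043 with the correction and without that library. Srebf1 ran from -0.085 to 0.054 when 1 library was left out (above 0 without control replicate 3, at 0.047, and without EFNA3 replicate 3), and was 0.022 with library weights and 0.0086 with the correction, blocked or not. Scd2 was 0.047 with the correction, blocked or not, and 0.030 with the correction and without EFNA3 replicate 1. Scd1, equal in the main comparison, ranged from -0.17 to 0.20. For these sign changes the cause was not tested.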

Other observations

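Apart from Scd1, whose lowest value was shared by control replicate 3 and EFNA3 replicate 1, the lowest library was EFNA3 replicate 1 for 5 of these genes and EFNA3 replicate 3 for 4. The mean of the 10 genes, each centred over the 6 libraries, was 0.10, 0.07 and 0.03 (log2) in control replicates 1 to 3 and -0.20, 0.04 and -0.02 in EFNA3 replicates 1 to 3, so EFNA3 replicate 2 lay above control replicate 3.

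The genes whose profile over the 6 libraries was most like that mean were Abhd2, Cecr2, Epb41l3, Tshz1 and Ift80, with Pearson r between 0.9958 and 0.9967, given as a description. Abhd2 had log2 values of 12.35, 12.26 and 12.19 in controls and 11.81, 12.21 and 12.13 with EFNA3. In all 5 genes EFNA3 replicate 1 was the lowest library, and their longest transcripts ran from 4073 to 9212 nt.

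Within a library the log2 ratio of Fasn to Acaca was 2.35 ± 0.079 in controls and 2.26 ± 0.067 with EFNA3 (SD, n = 3), and that of Srebf1 to Srebf2 was 1.98 ± 0.11 and 1.97 ± 0.12. The log2 ratio of Fasn to Srebf1 was 0.15, 0.13 and -0.07 in controls and -0.64, -0.11 and 0.01 with EFNA3, so these groups overlapped.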
